A study of Rattus norvegicus with 13 samples.

Results

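Pericytes and vascular smooth muscle cells, together called mural cells, wrap the blood vessels of the brain. The 10 genes described here are widely used to recognise them. Of these, 6 encode parts of the contractile apparatus (Acta2, Actg2, Myh11, Tagln, Cnn1 and Des) and 4 are used as pericyte genes (Pdgfrb, Vtn, Rgs5 and Kcnj8). They were taken as named genes, chosen with earlier results of these data known. Their probes are those that carry these names in the scanner files: 12 of 30367 probes. Of the 10 genes, 9 had a probe that stood well above background throughout 1 group or more and were tested, among 17244 genes tested in all. The rats were male Sprague-Dawley animals, and RNA was taken from their frontal cortex 1 month after trauma or a sham procedure. The rotational model, an acceleration of the head, had 3 trauma and 3 sham arrays. The lateral fluid percussion model, a pressure pulse onto the dura, had 3 trauma and 4 sham arrays. Sham rats of both models went through anaesthesia and surgery and received no trauma. The ages of the rats, and whether an RNA sample pools several rats, are not given in the sources used here.

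Smooth muscle cells surround arteries and arterioles and change their diameter through an actin and myosin apparatus like that of other smooth muscle. Pericytes lie on capillaries inside the vessel's basement membrane. They are held there by platelet-derived growth factor B, which endothelial cells release and which binds the receptor encoded by Pdgfrb, and they help to keep the blood-brain barrier closed. Several contractile genes share a DNA element in their regulatory regions, the CArG box, which binds serum response factor, and the cofactor myocardin drives them in smooth muscle.

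Values are scaled log2 signals: the log2 of a spot's processed signal minus the upper quartile of its array. A difference of 1 is therefore a 2-fold difference, and levels of different probes are not comparable. Between 67.0% and 74.1% of the spots of an array were well above background. Each model was hybridised on a slide of its own, so slide and model cannot be told apart. On each slide trauma and sham lay in different columns, in opposite order on the 2 slides, so column and trauma cannot be told apart within a model. The arrays are labelled as separate samples and nothing further ties them to animals, so p-values measure only the spread between these samples.

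All 9 measured mural genes had higher mean signals in trauma than in sham in both models. This held for 39.8% of all genes tested in the rotational model and 52.7% in the percussion model. The members were chosen with earlier results of these data known, and most varied together from array to array. Their counts are therefore descriptions and no independent support. None of the member differences passed limma's test after Benjamini-Hochberg adjustment over all genes. At an adjusted p under 0.05, 0 of 9 members passed after rotational trauma, where 0.0116% of all genes passed. After percussion trauma 0 of 9 passed, where 0% of all genes passed. At an unadjusted p under 0.05, 2 members (Actg2 and Vtn) were higher after rotational trauma, against 2.85% of all genes. After percussion trauma 7 members were higher at that level, all but Rgs5 and Kcnj8, against 7.52% of all genes. No member was lower at that level, against 4.01% and 3.76% of all genes. The percussion count depended on single arrays: it was 1 without percussion trauma 1 and 4 without percussion sham 4. The mean over both models put 8 members at an unadjusted p under 0.05, all but Kcnj8, against 5.1% of all genes. In that mean all 9 differences were above 0, as were those of 45.3% of all genes, and 0 of 9 passed adjustment, where 0% of all genes passed. In bulk tissue, a change in the number of mural cells and a change in RNA per cell cannot be told apart.

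**Figure D1:**
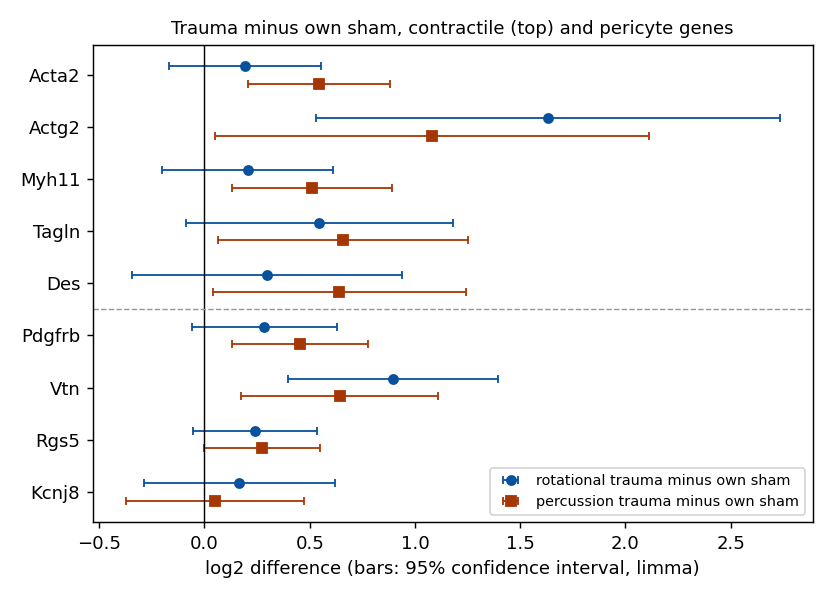
Log2 difference between trauma and the sham group of the same model for each measured mural gene, from limma (circles, rotational; squares, percussion; bars, 95% confidence interval; the dashed line parts contractile from pericyte genes). All points lie to the right of 0, from 0.05 for Kcnj8 in the percussion model to 1.63 for Actg2 in the rotational model, and in the rotational model only the intervals of Actg2 and Vtn leave out 0.

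Among the contractile genes, Actg2 differed most. It encodes gamma-2 smooth muscle actin, best known from the gut wall and also present in vessel walls. The sham arrays of the rotational model gave −5.61, −5.39 and −4.90, and the trauma arrays gave −3.06, −3.39 and −4.56. All 3 trauma arrays were above all 3 sham arrays, and trauma 3 lay nearest to sham. The log2 difference was 1.63 (SE 0.50, 3.10-fold, limma adjusted p = 0.543). In the percussion model the sham arrays gave −2.85, −2.97, −2.72 and −3.998, and the trauma arrays gave −1.18, −1.99 and −2.99. Here trauma 1 and trauma 2 were above every sham array, while trauma 3 lay below 3 of the 4 sham arrays. The difference was 1.08 (SE 0.47, 2.12-fold, adjusted p = 0.421), and 0.64 without percussion trauma 1. A second Actg2 probe, which shares 46 bases in a row with the first, gave 1.63 and 1.07. Their overlap makes this a repeat of nearly the same measurement. The size depended on the background correction, since normexp correction of the same spots gave 0.81 in the rotational model. On rn4, the build of the array files, the Actg2 probes lie at chr4:117732497-117732556 and chr4:117732483-117732542.

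Acta2 encodes smooth muscle alpha-actin, the actin most used to stain vascular smooth muscle. Its signal was −3.91, −3.83 and −3.83 on the rotational sham arrays and −3.49, −3.73 and −3.77 on the trauma arrays. The 3 trauma arrays were above all sham arrays, but trauma 2 and trauma 3 only narrowly so. The difference was 0.19 (SE 0.16, adjusted p = 0.923), and 0.11 without rotational trauma 1. The percussion sham arrays gave −3.01, −3.29, −3.50 and −3.41, and the trauma arrays gave −2.38, −2.84 and −3.05. Trauma 1 and trauma 2 exceeded every sham array, and trauma 3 lay just below sham 1. The difference was 0.55 (SE 0.15, 1.46-fold, adjusted p = 0.264), and 0.36 without percussion trauma 1. The longest run of bases shared by an Acta2 and an Actg2 probe was 6 of 60, so the 2 actins were read by different sequences.

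The Acta2 promoter is shown because the CArG boxes before this gene are the textbook example of the element named above. It is the RefSeq sequence on GRCr8 of the 250 bases before the annotated start, at chr1:241172504-241172753 on the minus strand, written 5′ to 3′. Capitals mark 2 sequences that differ from a CArG box at a single base of its A and T core, CCCTATATGG beginning 134 bases and CCTTGTTTGG beginning 84 bases before the start.
Acta2: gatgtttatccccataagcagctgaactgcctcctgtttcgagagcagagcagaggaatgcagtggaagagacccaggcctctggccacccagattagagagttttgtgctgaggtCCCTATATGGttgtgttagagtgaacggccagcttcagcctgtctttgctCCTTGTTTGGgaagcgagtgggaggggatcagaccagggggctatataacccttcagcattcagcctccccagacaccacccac
The CArG box by its name is CC, 6 bases of A or T, and GG, which reads as the same kind of element on both strands. An exact box was found in 501 of 33469 windows of this length before annotated rat genes (1.5%), and in 0 of the 7 windows at hand for these genes. An exact box or one with a single changed core base was in 2703 windows (8.08%), and among the 7 only in that of Acta2. These are matches of letters and no measure of binding. The windows of Tagln, Myh11 and Pdgfrb were not used here. That of Actg2 lies before a start 10340 bases inside the annotated gene, counted from the gene's upstream end.

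Myh11 encodes the smooth muscle myosin heavy chain, the motor protein of the contractile apparatus. It is the contractile member whose 2 probes read separate parts of the transcript. Both are shown because their agreement bears on how firmly the gene was measured; they share at most 5 bases in a row, and capitals in the first mark a stop triplet that ends its first reading frame.
Myh11 probe 1: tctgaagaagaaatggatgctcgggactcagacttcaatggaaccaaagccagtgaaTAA
Myh11 probe 2: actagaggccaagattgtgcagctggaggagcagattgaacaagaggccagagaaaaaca
Probe 1 (rn4 chr10:775993-776052) gave −2.08, −2.06 and −2.01 on the rotational sham arrays and −1.49, −1.94 and −2.11 on the trauma arrays. Trauma 1 stood clear of sham, trauma 2 was just above it and trauma 3 just below it. The difference was 0.20 (SE 0.19, adjusted p = 0.927), and 0.16 with probe 2 (rn4 chr10:769544-770044). Without rotational trauma 1 it was 0.03 with probe 1. In the percussion model probe 1 gave −0.87, −1.33, −1.16 and −1.44 in sham and −0.39, −0.74 and −0.93 in trauma. Trauma 1 and trauma 2 exceeded every sham array, and trauma 3 lay below sham 1. The difference was 0.51 (SE 0.17, 1.42-fold, adjusted p = 0.33), and 0.77 with probe 2, in the same direction.

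Tagln encodes transgelin, an actin-binding protein also known as SM22 alpha and an early marker of smooth muscle. Its probe (rn4 chr8:48902736-48903116, a span that crosses an intron) is shown as that of the contractile gene with the steadiest values in rotational sham.
Tagln: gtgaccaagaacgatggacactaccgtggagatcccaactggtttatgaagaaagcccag
All 3 rotational sham arrays gave −1.66, and the trauma arrays gave −0.73, −1.44 and −1.18. Every trauma array was above every sham array. The difference was 0.55 (SE 0.29, 1.46-fold, adjusted p = 0.782), and 0.35 without rotational trauma 1. In the percussion model sham gave −0.66, −1.05, −0.91 and −1.26 and trauma gave 0.35, −0.30 and −0.995. Trauma 1 and trauma 2 were the highest arrays, and trauma 3 lay among the sham arrays. The difference was 0.66 (SE 0.27, 1.58-fold, adjusted p = 0.397), and 0.33 without percussion trauma 1.

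Des encodes desmin, the intermediate filament of muscle cells, which pericytes also make. Its signal was −3.37, −3.12 and −3.17 in rotational sham and −2.48, −3.14 and −3.14 in rotational trauma. Trauma 1 alone was above sham, and the other trauma arrays lay within it. The difference was 0.30 (SE 0.29, adjusted p = 0.944), and 0.07 without rotational trauma 1. Percussion sham gave −2.75, −2.86, −2.63 and −3.39 and percussion trauma gave −1.59, −2.47 and −2.74. Again trauma 1 was far above the rest and trauma 3 lay within sham. The difference was 0.64 (SE 0.27, 1.56-fold, adjusted p = 0.415), and 0.30 without percussion trauma 1. The Des probe lies at chr9:74645149-74645208 on rn4. Cnn1, which encodes calponin 1, another actin-binding protein of smooth muscle, was not well above background on any array (0 of 13), so no difference is given for it.

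Vtn had the largest log2 differences of the pericyte genes. It encodes vitronectin, a matrix and plasma glycoprotein that binds integrins; in the brain pericytes are a main source of its transcript. Its probe (rn4 chr10:64611899-64612164) is shown because this was the only member whose trauma arrays were above all sham arrays in both models.
Vtn: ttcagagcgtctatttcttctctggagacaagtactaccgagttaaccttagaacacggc
Rotational sham gave −0.06, −0.62 and −0.34 and rotational trauma gave 0.996, 0.27 and 0.41. The group means were −0.34 ± 0.28 (SD, n = 3) and 0.56 ± 0.39 (SD, n = 3), without overlap. The difference was 0.90 (SE 0.23, 1.86-fold, limma adjusted p = 0.44), and 0.68 without rotational trauma 1. Percussion sham gave 0.35, −0.04, 0.08 and 0.11, and percussion trauma gave 1.19, 0.66 and 0.45. The lowest trauma array, trauma 3, stood only a little above the highest sham array, sham 1. The difference was 0.64 (SE 0.21, 1.56-fold, adjusted p = 0.314), and 0.43 without percussion trauma 1. Averaged over both models, with all arrays, the difference was 0.77 (SE 0.16, unadjusted p = 0.000415, adjusted p = 0.186), rank 28 of 17244 genes by p.

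Pdgfrb encodes platelet-derived growth factor receptor beta, the receptor that keeps pericytes on vessels. Rotational sham gave −2.07, −1.99 and −2.16, and rotational trauma gave −1.62, −1.79 and −1.95. Trauma and sham did not overlap, though trauma 3 was close to sham 2. The difference was 0.28 (SE 0.16, adjusted p = 0.799). Percussion sham gave −1.35, −1.87, −1.75 and −1.73, and percussion trauma gave −0.91, −1.42 and −1.34. Sham 1 lay among the trauma arrays, and the other sham arrays were below all of them. The difference was 0.45 (SE 0.15, 1.37-fold, adjusted p = 0.307), and 0.30 without percussion trauma 1. The Pdgfrb probe lies at chr18:57053387-57053446 on rn4.

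Rgs5 and Kcnj8 differed least among the pericyte genes. Rgs5 encodes a regulator that shortens signalling by G proteins and is among the most abundant pericyte transcripts. Its probe (rn4 chr13:85480542-85482176, a span that crosses introns) is printed as a pericyte gene with small differences, beside that of Vtn.
Rgs5: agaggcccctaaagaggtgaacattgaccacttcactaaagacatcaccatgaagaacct
Rgs5 gave −1.12, −1.48 and −1.24 in rotational sham and −0.87, −1.18 and −1.08 in rotational trauma, with trauma 2 inside the sham range. In percussion sham it gave −1.21, −0.86, −1.14 and −1.26, and in percussion trauma −0.75, −1.03 and −0.76, with trauma 2 inside the sham range again. The differences were 0.24 (SE 0.13, adjusted p = 0.804) and 0.27 (SE 0.13, adjusted p = 0.444). Without rotational sham 2 the first was 0.14.

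Kcnj8 encodes Kir6.1, the pore of the ATP-sensitive potassium channel of vascular mural cells. It gave −0.99, −1.20 and −0.78 in rotational sham and −0.32, −1.05 and −1.10 in rotational trauma, so trauma 1 alone was above sham. Percussion sham gave −1.27, −0.83, −0.92 and −1.22 and percussion trauma gave −0.91, −1.21 and −0.91, all within sham. The differences were 0.17 (95% confidence interval −0.29 to 0.62) and 0.05 (−0.37 to 0.47), with adjusted p-values of 0.967 and 0.943. Without rotational trauma 1 the first was −0.09. The Kcnj8 probe lies at chr4:180144084-180144143 on rn4.

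**Figure D2:**
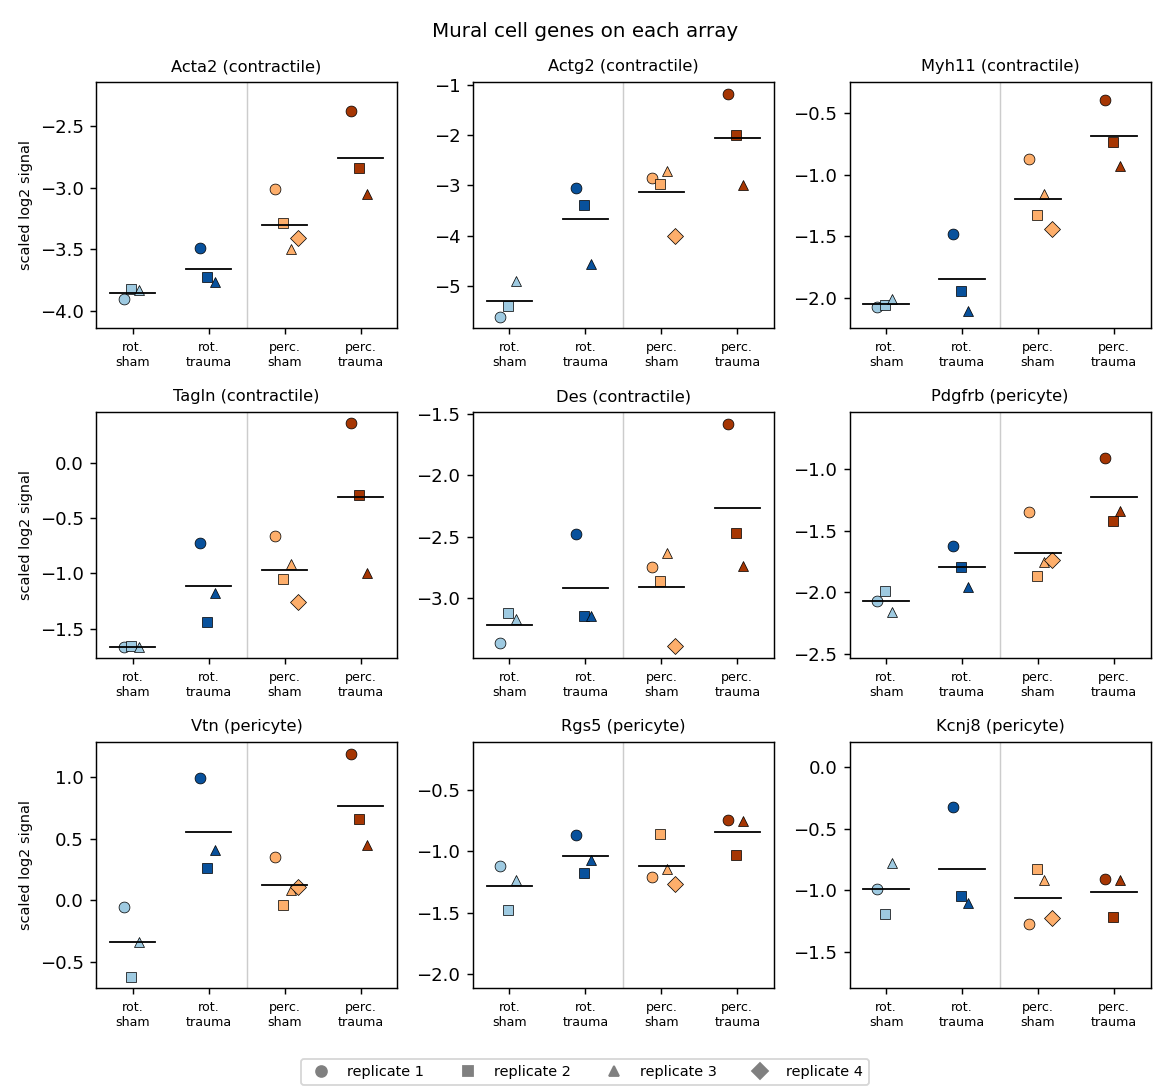
Scaled log2 signal of each measured mural gene on each array, by group, with group means as lines and replicates by marker shape; each panel has its own level on the axis. Rotational trauma 1 was the highest array of its model for all 9 genes, and percussion trauma 1 for 8 of 9.

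The overlap of trauma and sham arrays can be counted over all genes. In the rotational model every trauma array was above every sham array for 5 of 9 members (Acta2, Actg2, Tagln, Pdgfrb and Vtn), against 4.86% of all genes. In the percussion model this held for 1 member, Vtn, against 5.9% of all genes. Vtn was thus the only member for which it held in both, against 0.557% of all genes. Single trauma arrays differed widely. Percussion trauma 1 was above every percussion sham array for 8 of 9 members, trauma 2 for 6 and trauma 3 for 3. Among the rotational trauma arrays, trauma 1 was above every sham array for 9 of 9 members, and trauma 2 and trauma 3 for 6 each.

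The contractile genes were then set against the pericyte genes. The median log2 difference of the 5 measured contractile genes was 0.30 in the rotational model and 0.64 in the percussion model. For the 4 pericyte genes it was 0.26 and 0.36, and for all genes tested −0.03 and 0.01. The contractile median thus exceeded the pericyte median by little in the rotational model and by more in the percussion model. In the rotational model the order was reversed with normexp background correction (0.23 for contractile and 0.25 for pericyte genes), without rotational trauma 1 (0.11 and 0.18), without rotational sham 1 (0.22 and 0.30) and with the slide row as a block, described further on. In the percussion model no setting that was run reversed it. Averaged over both models the medians were 0.47 and 0.31. Leaving out Actg2 from the one set and Vtn from the other gave 0.25 and 0.24 in the rotational model and 0.59 and 0.27 in the percussion model. The SD of a set's median between arrays of a group was 0.318 for contractile and 0.179 for pericyte genes. It describes single arrays and 1 set at a time, so it does not measure the spread of these gaps, which was not estimated.

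Array by array, percussion trauma 1 stood 1.27 above its sham mean for the contractile genes and 0.59 for the pericyte genes (means of the members). Percussion trauma 2 gave 0.64 and 0.18, and trauma 3 reversed the order with 0.16 and 0.29. Rotational trauma 1 gave 0.97 and 0.72, trauma 2 gave 0.49 and 0.23, and trauma 3 gave 0.26 and 0.24. The contractile mean was the higher of the pair on 5 of 6 trauma arrays. By medians of the members the order depended more on the array. The contractile median was the lower on rotational trauma 2 (0.13 and 0.19), rotational trauma 3 (0.09 and 0.16) and percussion trauma 3 (0.17 and 0.33). It was the higher on the other trauma arrays. The sham arrays were spread from −0.40 to 0.27 for contractile and from −0.15 to 0.11 for pericyte genes. Percussion trauma 3 therefore lay within the sham arrays of its model for the contractile genes and above them for the pericyte genes.

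**Figure D3:**
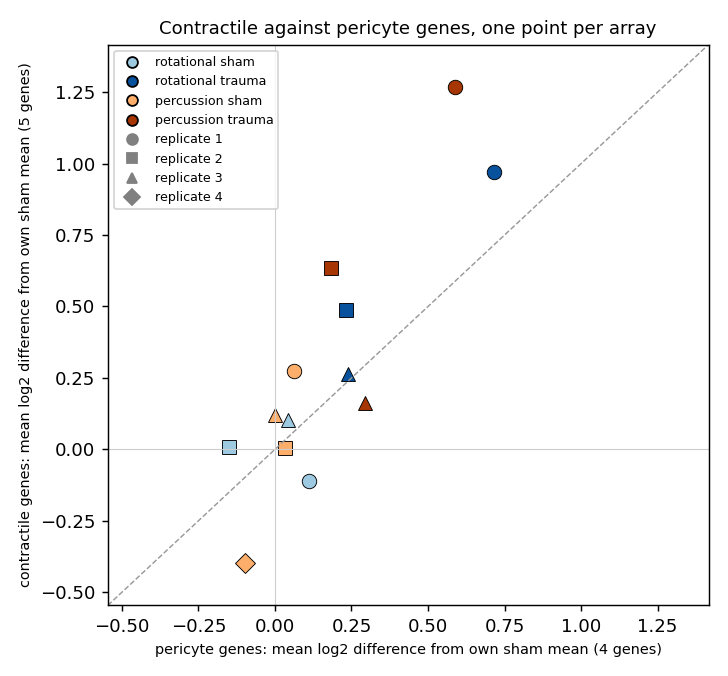
Mean log2 difference of the contractile genes (vertical axis, 5 genes) against that of the pericyte genes (horizontal axis, 4 genes) for each of the 13 arrays, each gene centred on the sham mean of its own model; the dashed line marks equal values. Of the trauma arrays, 5 of 6 lie above the line, and percussion trauma 3 lies below it with 0.16 against 0.29.

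The medians rested in part on single arrays. Without percussion trauma 1 the contractile median of that model was 0.36 in place of 0.64, and without rotational trauma 1 that of the rotational model was 0.11 in place of 0.30. Both of these arrays lay in row 1 of their slide. So did percussion sham 1, the sham array of highest contractile mean (0.27) and the highest of its group for 5 of 9 members. With the slide row as a block, an alternative added after seeing the data, the contractile and pericyte medians were 0.12 and 0.17 in the rotational model. Only rows 2 and 3 held both groups there, so rotational trauma 1 and rotational sham 3 did not enter the contrast. In the percussion model they were 0.68 and 0.35, with rows 1, 2 and 4 holding both groups. In that fit all 9 members kept a difference above 0 in both models, and 0 of 9 passed adjustment.

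Most members varied together from array to array. Across the 13 arrays, each gene centred on the mean of its model, Pearson's r between 2 contractile genes had a median of 0.879 over 10 pairs, from 0.755 to 0.921. Between 2 pericyte genes the median was 0.602 over 6 pairs, from 0.192 to 0.824, and between a contractile and a pericyte gene it was 0.662 over 20 pairs. Arrays of a group share handling and slide, and the trauma difference itself enters these values. Centred on the group, which takes that difference out, the medians were 0.844, 0.434 and 0.506. Centred on the model, Vtn had r = 0.82 with Pdgfrb and 0.72 with Rgs5, and Rgs5 had r = 0.71 with Kcnj8. The lowest value among pericyte genes was that of Pdgfrb and Kcnj8, 0.19, while Pdgfrb and Acta2 had r = 0.91. These are descriptions of 13 arrays, and no test was made.

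Over the same 13 arrays the genes most like Acta2 were Cd74, the invariant chain of MHC class II (r = 0.958), Trim47 (0.951), Col4a5, a chain of basement membrane collagen (0.947), Dcdc2 (0.946) and the adhesion molecule gene Icam1 (0.945). Their log2 differences in that order were 0.27, 0.12, 0.55, 0.54 and 0.11 after rotational trauma. After percussion trauma they were 1.30, 0.30, 0.80, 1.06 and 0.58. Those most like Pdgfrb were C1s, a complement protease (0.942), Timp1, an inhibitor of matrix metalloproteases (0.934), Mmp23 (0.931), Col4a5 (0.929) and Castor1 (0.927). The log2 differences of these were 0.59, 0.84, 0.64, 0.55 and 0.42 after rotational trauma and 0.85, 0.83, 0.58, 0.80 and 0.48 after percussion trauma. Only genes with a gene symbol were searched, leaving out names that begin with LOC, RGD or AABR. Among the genes searched, the best match of either gene was no contractile or pericyte gene of the lists.

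The 2 models did not differ detectably in any member. The rotational difference minus the percussion difference was largest in size for Actg2 at 0.55 (95% confidence interval −0.96 to 2.06, limma adjusted p = 0.884), and it was −0.23 with normexp background correction. For the other members it lay between −0.35 for Acta2 and 0.25 for Vtn. The adjusted p-values of all 9 were between 0.716 and 0.981, 0 of 9 passed, where 0% of all genes did, and 0 members had an unadjusted p under 0.05, where 8.56% of all genes did. The intervals are wide, so like responses are not shown. The sham groups themselves were at unlike levels. Percussion sham was above rotational sham by 2.17 for Actg2, 0.85 for Myh11, 0.69 for Tagln, 0.55 for Acta2, 0.46 for Vtn, 0.40 for Pdgfrb, 0.31 for Des and 0.16 for Rgs5, and differed by −0.07 for Kcnj8. The gap was thus larger for 4 contractile genes than for any pericyte gene.

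Genes around the members were described from lists, by counts and medians and with no test of a list; no gene of these lists passed limma's adjustment in either model. Of 20 further contractile genes 16 were measured, and 13 of 16 were higher in trauma in each model, with medians of 0.34 and 0.19. At an unadjusted p under 0.05, 5 were higher in each model, against 2.85% and 7.52% of all genes, and 0 and 1 were lower, against 4.01% and 3.76%. The lower gene was Srf, which encodes serum response factor, at −0.05 and −0.16. All its trauma arrays were below all sham arrays in both models, and the share of all genes with that pattern was not counted. After rotational trauma its unadjusted limma p was 0.404. Srf was picked out after its values were seen. Cald1, which encodes the actin-binding caldesmon, differed by 0.35 and 0.47, and all trauma arrays were above all sham arrays in both models. Tpm2, a tropomyosin, differed by 0.62 and 0.73, also without overlap in either model. Trauma arrays were above all sham arrays in both models for 0.557% of all genes. Itga8, an integrin chain of mural cells and fibroblasts, differed by 0.82 and 0.34. Myocd, which encodes myocardin, did not pass the filter on dim probes.

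The further genes listed for pericytes differed less. In bulk cortex the cells that gave their signals cannot be told apart. Of 20 listed 18 were measured, 11 were higher after rotational and 10 after percussion trauma, and the medians were 0.06 and 0.05. The 3 of smallest p were Cd248, the surface protein endosialin, at 0.48 and 0.23, Tbx18, a mural cell transcription factor, at 1.01 and 0.80, and Anpep, an aminopeptidase on pericytes, at 0.53 and 0.42. At an unadjusted p under 0.05, 3 were higher after rotational and 1 after percussion trauma, against 2.85% and 7.52% of all genes. At that level 1 and 0 were lower, against 4.01% and 3.76%. The lower gene was Rgs4, a regulator of G proteins like Rgs5, at −0.24 and 0.04, picked out after its values were seen.

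Ligands and partners of the pericyte members came next. Among 5 measured genes of platelet-derived growth factors and their receptors, Pdgfrb among them, 3 were higher in each model (medians 0.14 and 0.13). Pdgfb, whose product is the main ligand of the Pdgfrb receptor, differed by 0.58 (SE 0.21) after rotational and −0.20 (SE 0.20) after percussion trauma. Its signal was weak, with group means between −6.14 and −5.56. Pdgfc, a ligand of the alpha receptor, differed by −0.42 and 0.13. Both ligands were picked out after their values were seen. Pdgfra, the alpha receptor and also a member of the fibroblast list, differed by 0.14 and 0.24 and Pdgfa by −0.02 and −0.16. Of 9 measured genes of transforming growth factor beta signalling, which helps mural cells to mature, 5 and 7 were higher (medians 0.08 and 0.18). Its inhibitor gene Smad7 differed by −0.17 and −0.19, and the receptor genes Tgfbr2 by 0.14 and 0.48 and Tgfbr1 by 0.09 and 0.18.

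Vitronectin binds integrins, and of 8 listed partners 4 were measured; 2 were higher after rotational and 4 after percussion trauma, with medians of 0.02 and 0.21. The integrin chains Itgb1, Itgb8 and Itgb5 differed by 0.10, 0.14 and −0.07 after rotational trauma and by 0.26, 0.13 and 0.22 after percussion trauma. All 8 partners of Kcnj8 and Rgs5 (sulfonylurea receptors, the other channel pore, G proteins and related regulators) were measured; 3 and 6 were higher, with medians of −0.09 and 0.09. Gna11, a G protein alpha subunit, differed by 0.15 and 0.24, Gnai2 by 0.10 and 0.13, and Abcc8, the sulfonylurea receptor better known from neurons and islets, by −0.17 and −0.24.

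Markers of other cells were measured on the same arrays. All 14 markers of meningeal and perivascular fibroblasts, cells that lie beside the larger vessels and on the brain surface, had higher means in trauma in both models, with medians of 1.04 and 1.23, above those of either member set. At an unadjusted p under 0.05, 7 were higher after rotational and 13 after percussion trauma, against 2.85% and 7.52% of all genes. Ogn, a matrix proteoglycan, differed by 2.07 and 1.34, Igf2 by 1.31 and 1.70 and Ptgds by 0.98 and 0.88. The mean of the list over an array ranged from −1.03 to −0.27 in rotational sham, −0.11 to 0.82 in rotational trauma, −1.12 to −0.27 in percussion sham and 0.01 to 1.20 in percussion trauma. Over the 13 arrays it had r = 0.917 with the contractile mean and r = 0.926 with the pericyte mean. Each gene was centred on the mean of its model, so the trauma difference itself enters these values. The same holds for the correlations of the other lists below. The part of fibroblasts in the member differences was not tested.

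The 12 endothelial markers, which line the same vessels, differed less. Their medians were 0.05 and 0.15, and 7 and 10 were higher. At an unadjusted p under 0.05, 0 of 12 were higher in either model, against 2.85% and 7.52% of all genes. The mean of the endothelial markers had r = 0.813 with the contractile mean and r = 0.874 with the pericyte mean over the 13 arrays. The endothelial genes of smallest p were Vwf at 0.29 and 0.32, Tek at 0.43 (SE 0.41) and 0.54 (SE 0.38) and Kdr at 0.07 and 0.25. The Tek signal was weak, with group means between −6.29 and −5.36. Of 7 choroid plexus markers 3 were measured: Aqp1 differed by 1.60 and 1.74, Kcnj13 by 1.17 and 1.27, and Ttr by 0.92 and 1.28. The other choroid plexus markers, Kl, Folr1, Otx2 and Clic6, did not pass the filter on dim probes. The mean of the 3 measured markers ranged from −5.00 to −2.21 in rotational sham and −2.98 to −1.72 in rotational trauma. In the percussion model it ranged from −4.31 to −2.86 in sham and −2.91 to −1.43 in trauma. The groups thus overlapped in this mean in both models, as they did for Ttr. For Aqp1 and Kcnj13 every trauma array was above every sham array in both models, against 0.557% of all genes. The mean of the 3 markers had r = 0.669 with the contractile and r = 0.758 with the pericyte mean. Of 7 skeletal muscle markers 3 were measured, Des among them. Myh4, Ckm, Tnnt3 and Mylpf did not pass the filter, Acta1 differed by −0.36 and 0.10 and Myh2 by −0.16 and −0.11. Their part in the member differences was not tested.

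All 3 measured red blood cell markers had lower means in trauma, with medians of −0.33 and −0.41. They were Alas2 with −0.34 and −0.47, Hbb-b1 with −0.33 and −0.41, and Hbb with −0.27 and −0.26. At an unadjusted p under 0.05, 0 were lower in either model, against 4.01% and 3.76% of all genes. The mean of these markers was 0.15 above its sham mean on rotational trauma 3 and 0.03 above it on percussion trauma 3. It had r = −0.752 with the contractile mean over the 13 arrays. For the cortex itself, 6 of 7 neuron markers were measured, with medians of −0.06 and 0.08. Rbfox3, a neuronal splicing factor, differed by 0.12 and −0.50, Tbr1, a deep-layer transcription factor, by −0.02 and 0.29, and Neurod6 by −0.18 and −0.03. The 4 astrocyte markers had medians of −0.07 and 0.08; among them Gfap, the astrocyte filament gene, differed by −0.36 and 0.98, Aldh1l1 by −0.04 and −0.10 and the water channel gene Aqp4 by −0.07 and 0.18. The 4 microglia markers had medians of −0.18 and −0.05; among them the chemokine receptor gene Cx3cr1 differed by −0.24 and −0.40, Csf1r by −0.18 and 0.47 and P2ry12 by −0.19 and −0.04.

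**Figure D4:**
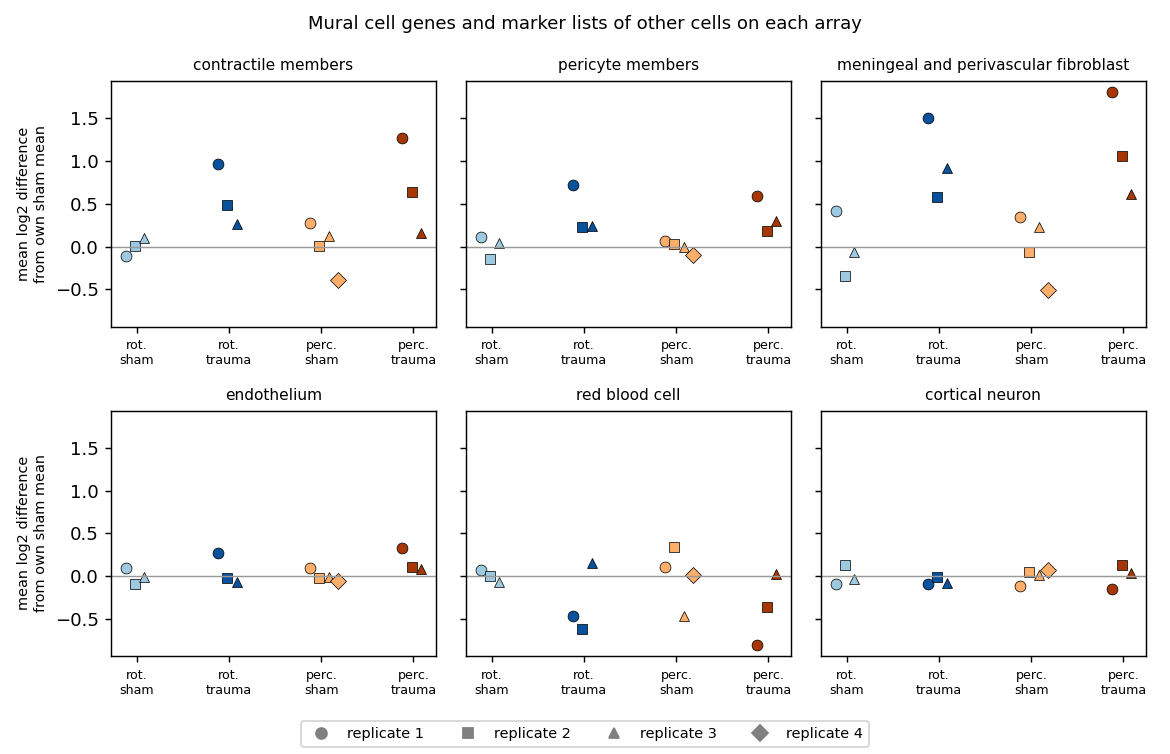
Mean log2 difference of each gene list from the sham mean of its own model, for each array, by group and replicate. The fibroblast markers reach 1.81 on percussion trauma 1 and 1.499 on rotational trauma 1, the arrays on which the contractile members are highest (1.27 and 0.97), while endothelial and neuron markers stay between −0.15 and 0.33.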

How the data were processed

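RNA of 13 frontal cortex samples was labelled with Cy3 and hybridised to 1-colour Agilent rat arrays. Per the file headers, the authors extracted spots with Agilent Feature Extraction 10.5.1.1; the deposited processed signal is an intensity, background-subtracted, spatially detrended, not scaled between arrays, with surrogates for low values. The authors also deposited a log2 table. Its 13 columns had the same median (8.15), each column matched its own array best (13 of 13), and it was used as an alternative; how it was normalised is not given in the sources used here.

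The 58717 non-control spots were averaged per probe on the log2 scale, and the 75th percentile of each array was subtracted. Probes were kept if well above background on all arrays of a group (20004 of 30367), with the probe of highest mean per gene. Names came from a GRCr8 gene table (18006 probes by accession, 2654 by symbol, 559 by synonym; 9148 kept the file's name). limma 3.58.1 in R 4.3.3 fitted a mean per group to all 13 arrays (9 residual degrees of freedom), with two-sided tests and Benjamini-Hochberg adjustment over 17244 genes at 0.05. Python 3.11.15 made the figures. The scripts were tested on simulated data.

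The members and lists were chosen with earlier results of these data known. All 10 members are named, and of each other list the 3 genes of smallest unadjusted p over both models. Also named are the 5 genes with a gene symbol most correlated with Acta2 and with Pdgfrb. Alternatives were normexp background correction (offset 50), quantile and median scaling, the deposited table, the dim-probe filter, every probe, 1 model per fit, the variance model, a replicate block, a slide row block and each array left out.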

Additional observations from a re-analysis of the deposited data

How the results depend on the processing

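No member passed adjustment under any setting but the replicate block, and set medians kept their direction outside the difference between models. Genes passing after rotational trauma numbered 2, against 5 with normexp, 0 with quantile scaling, 4 with the deposited table, 356 without the dim-probe filter, 6 with that model alone, 5 with the trended variance, 0 with the slide row block and 0 with the replicate block. After percussion trauma 0 passed, 2979 without the filter. For the difference 0 passed, 3780 without the filter and 1 with the trended variance. Members higher at an unadjusted p under 0.05 were 4 after rotational trauma (2 with all arrays) and 4 after percussion trauma (7) when each model was fitted alone. Some signs turned. The Actg2 difference between models (0.55) was −0.23 with normexp. That of Rgs5 (−0.03) was 0.10 with normexp, 0.0026 with quantile scaling, 0.018 with median scaling and 0.014 with the replicate block. Kcnj8 after percussion trauma was −0.019 with median scaling and −0.00463 with the replicate block, and its difference between models was −0.079 with the slide row block. The causes were not tested.

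The labels do not say whether same-numbered arrays belong together, so the numbers were not taken to pair samples. Deviations of same-numbered arrays from their group means had r = 0.109, 0.265 and 0.020 in the rotational model. In the percussion model r was 0.282, −0.023 and −0.006. Differently numbered arrays were not compared, so these values cannot tell whether samples were paired. With the replicate block, 28 genes passed for the mean of both models (0 without it), among them 1 member, Vtn (0.77, adjusted p = 0.0455; 0.0755 to 0.48 under the other 22 settings).

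Leaving out each array in turn, genes passing ranged from 0 to 12 (rotational), 0 to 5 (percussion), 0 to 21 (mean) and 0 to 8 (difference), and members passing stayed at 0. Members higher at an unadjusted p under 0.05 ranged from 2 to 3, 1 to 8 and 7 to 8 in the first 3 contrasts. The contractile median ranged from 0.11 to 0.41, 0.36 to 0.88, 0.30 to 0.59 and, for the difference, −0.45 to −0.01. The pericyte median ranged from 0.18 to 0.34, 0.26 to 0.46, 0.26 to 0.36 and −0.13 to 0.13. Signs turned for Kcnj8 (−0.087 to 0.31, −0.021 to 0.15, −0.019 to 0.18 and −0.14 to 0.26) and, in the difference, for Tagln (−0.45 to 0.22) and Rgs5 (−0.14 to 0.044). With 3 or 4 arrays a group, their number limits the precision, and signals not well above background, as for Cnn1, could not be compared.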
